A study of Mus musculus with 78 samples.

Results

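The genes described here encode 2 families of potassium channel that alcohol acts on directly, the BK channels and the GIRK channels. They were the 4 BK genes Kcnma1, Kcnmb1, Kcnmb2 and Kcnmb4 and the 4 GIRK genes Kcnj3, Kcnj6, Kcnj9 and Kcnj5. They were chosen by name, and all 8 are among the 55367 gene symbols of the deposited tables. Poly(A) RNA had been sequenced from 78 libraries of 7 dissected brain regions of 12 mice. The mice were constitutive Acss2 knockouts (KO) or wild type (WT), 3 of each sex and genotype, with 1 to 3 libraries for each sex, genotype and region. Acss2 encodes an enzyme that turns acetate, an end product of ethanol breakdown, into acetyl-CoA. The knockout lacks the stretch from exon 3 to exon 7 in every cell and was backcrossed to C57BL/6J for 3 generations. All mice, WT included, were single-housed adults, with no closer age in the labels. All had drunk ethanol, offered at 15% by volume for 2 to 4 h early in the dark phase of the day (the drinking-in-the-dark protocol). Water stood beside it in the first week and was absent from the sessions of the week after. Since no mouse went without ethanol, the comparisons were between regions, genotypes and sexes of drinking mice, and none of them measures a response to ethanol.

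BK channels open when the membrane is depolarized and when calcium rises inside the cell, and the potassium current that follows shortens and limits firing. Kcnma1 encodes the pore-forming alpha subunit, and the Kcnmb genes encode beta subunits that change its gating. GIRK channels are opened by the beta and gamma subunits of inhibitory G proteins, so that receptors for GABA, adenosine, opioids or dopamine can quiet a neuron through them. Kcnj3, Kcnj6, Kcnj9 and Kcnj5 encode the subunits GIRK1, GIRK2, GIRK3 and GIRK4, which assemble in fours. Ethanol at levels reached in drinking activates both channel types, in the GIRK channels through a pocket in the cytoplasmic part of the protein and in BK channels to an extent that depends on the beta subunit.

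Libraries of both parts of the striatum, the amygdala and the dorsal hippocampus held 4454420 to 14487778 counts. Those of the ventral hippocampus, cortex and prefrontal cortex held 629635 to 1228828. The library numbers in the labels restart between these groups of regions, so depth, numbering series and region cannot be told apart between them. Of the 21 pairs of regions, 9 lie within a numbering series and 12 between them. A floor of 3 counts corresponds to 0.207 to 0.673 CPM (counts scaled to a library total of 1000000) in the deeper libraries and to 2.44 to 4.76 CPM in the shallower ones. Acss2 separated the genotypes, at 0.971 to 13.96 CPM in 40 KO and 35.9 to 73.8 CPM in 38 WT libraries.

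Some libraries went against their labels in the marker genes of their region or sex. Striatal projection neuron markers (8 genes) summed to 435 CPM in the dorsal striatum library of male KO mouse 10 and to 250.1 CPM in that of female WT mouse 23, against a regional median of 5856 CPM. Their excitatory neuron markers (6 genes, among them Slc17a7) summed to 2132 and 2219 CPM, where the regional median was 359 CPM. The same striatal sum was 1046 CPM in the ventral striatum of male KO mouse 10 and 438 CPM in that of male WT mouse 13, against a median of 4617 CPM. It was 4031 CPM in the ventral hippocampus of female KO mouse 6, against a median of 186 CPM. The other libraries of this kind were the amygdala of male WT mouse 12, with an excitatory sum of 246 CPM against 1373 CPM, the dorsal hippocampus of female WT mouse 23, with a dentate granule cell sum of 123 CPM against 567 CPM, and the prefrontal cortex library labelled female WT mouse 23, whose sex-chromosome genes were those of a male. These 8 libraries are called in doubt below. They were picked after their values were seen. Some results are given with and without them, and where a result says nothing of them they are included.

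The promoters of the 4 genes whose transcripts were low in both striatal regions are shown first. That of Kcnj5 follows, whose mean level was highest in the ventral striatum, at 7.21 CPM against 1.73 CPM in the dorsal striatum. Each runs from 250 bases before to 50 bases after the start in RefSeq on GRCm38.p6, 5′ to 3′ on the strand of the gene. All 8 genes matched an entry of this table, Kcnj6 with 2 starts, of which the outer one is shown. Capitals mark matches on either strand to 3 motifs. The GC box was searched as GGGCGG. The TATA box, the element bound by the core transcription machinery, was searched as TATAAA. The half-site of the cyclic AMP response element was searched as TGACGT. None of these strings of letters contains another.
Kcnj3, chr2:55435720-55436019, plus strand: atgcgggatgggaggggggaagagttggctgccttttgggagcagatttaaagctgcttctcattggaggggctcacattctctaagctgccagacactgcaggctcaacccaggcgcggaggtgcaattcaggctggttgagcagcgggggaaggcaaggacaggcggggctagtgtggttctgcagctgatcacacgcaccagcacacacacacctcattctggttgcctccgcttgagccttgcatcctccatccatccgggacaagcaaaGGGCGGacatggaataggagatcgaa
Kcnj6, chr16:94997647-94997946, minus strand: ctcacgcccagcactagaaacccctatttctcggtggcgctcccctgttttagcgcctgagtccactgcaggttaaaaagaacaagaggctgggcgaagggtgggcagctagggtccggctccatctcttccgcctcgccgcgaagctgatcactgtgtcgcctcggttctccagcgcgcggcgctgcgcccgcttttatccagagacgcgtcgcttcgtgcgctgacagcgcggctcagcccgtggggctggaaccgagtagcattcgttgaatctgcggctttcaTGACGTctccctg
Kcnj9, chr1:172329273-172329572, minus strand: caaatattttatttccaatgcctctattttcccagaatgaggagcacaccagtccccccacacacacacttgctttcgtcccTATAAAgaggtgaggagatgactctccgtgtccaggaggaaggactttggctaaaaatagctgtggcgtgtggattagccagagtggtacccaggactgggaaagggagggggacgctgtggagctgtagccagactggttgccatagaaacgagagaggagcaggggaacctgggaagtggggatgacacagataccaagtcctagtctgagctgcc
Kcnmb4, chr10:116473474-116473773, minus strand: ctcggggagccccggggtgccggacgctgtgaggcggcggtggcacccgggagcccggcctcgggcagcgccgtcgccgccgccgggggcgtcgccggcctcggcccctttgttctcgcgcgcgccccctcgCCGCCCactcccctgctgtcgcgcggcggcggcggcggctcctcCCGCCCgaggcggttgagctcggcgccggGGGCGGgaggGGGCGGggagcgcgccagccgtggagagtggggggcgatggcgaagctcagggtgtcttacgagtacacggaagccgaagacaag
Kcnj5, chr9:32344295-32344594, minus strand: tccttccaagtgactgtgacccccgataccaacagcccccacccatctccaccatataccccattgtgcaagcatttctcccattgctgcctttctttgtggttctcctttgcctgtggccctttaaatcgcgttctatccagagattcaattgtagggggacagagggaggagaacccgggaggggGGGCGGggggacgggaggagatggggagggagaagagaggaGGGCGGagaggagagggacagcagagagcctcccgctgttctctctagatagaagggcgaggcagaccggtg

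No motif among those searched was in all 4 windows shown of the genes with low striatal levels. In the windows shown, a GC box was found in Kcnj3 (1 match), Kcnmb4 (4 matches) and Kcnj5 (2 matches), a TATA box in Kcnj9 and the half-site in Kcnj6. The window at the inner start of Kcnj6, chr16:94856641-94856940, held 1 GC box and no half-site. Among all 32851 promoters of the table, 35.7% held a GC box, 13.6% a TATA box and 7.51% the half-site. Base composition also varied, with 79.0% G and C and 48 CpG dinucleotides in the Kcnmb4 window against 52.3% and 5 in that of Kcnj9. The median over all promoters was 52.7% and 7 CpG. A match is a description of the letters only.

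The members differed between regions in many tests and between genotypes or sexes in none. Over the 21 pairs of regions, 72 of 168 tests passed an adjusted p of 0.05 (edgeR's quasi-likelihood test on all 78 libraries), a share of 42.9% where 36.8% of tests over all genes passed. In the 10 pairs of a striatal with another region, 58 of 80 tests passed (72.5%, all genes 47%), 49 of them lower in striatum (all genes 23.3%) and 9 higher (all genes 23.7%). In the other 11 pairs 14 of 88 passed (15.9%, all genes 27.6%). The pairs of striatum with the ventral hippocampus, cortex or prefrontal cortex lie between the numbering series, where depth, numbering series and region cannot be told apart. Over all pairs, 31 of 72 tests passed within a series and 41 of 96 between them. The share over all genes was not split in this way. Kcnmb4 and Kcnj3 were lower in striatum in 10 of 10 pairs of a striatal with another region. Kcnj6 and Kcnj9 were lower in 9 of 10, Kcnmb2 in 6 and Kcnma1 in 5. Kcnj5 was higher in 6 and Kcnmb1 in 3. The calls of Kcnmb2, Kcnj5 and Kcnmb1 include pairs with shallow regions, where these genes lay at or about the floor of 3 counts. Without the libraries in doubt the lower calls became 10 of 10 for Kcnj6 and Kcnj9 also and 9 of 10 for Kcnma1.

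**Figure D1:**
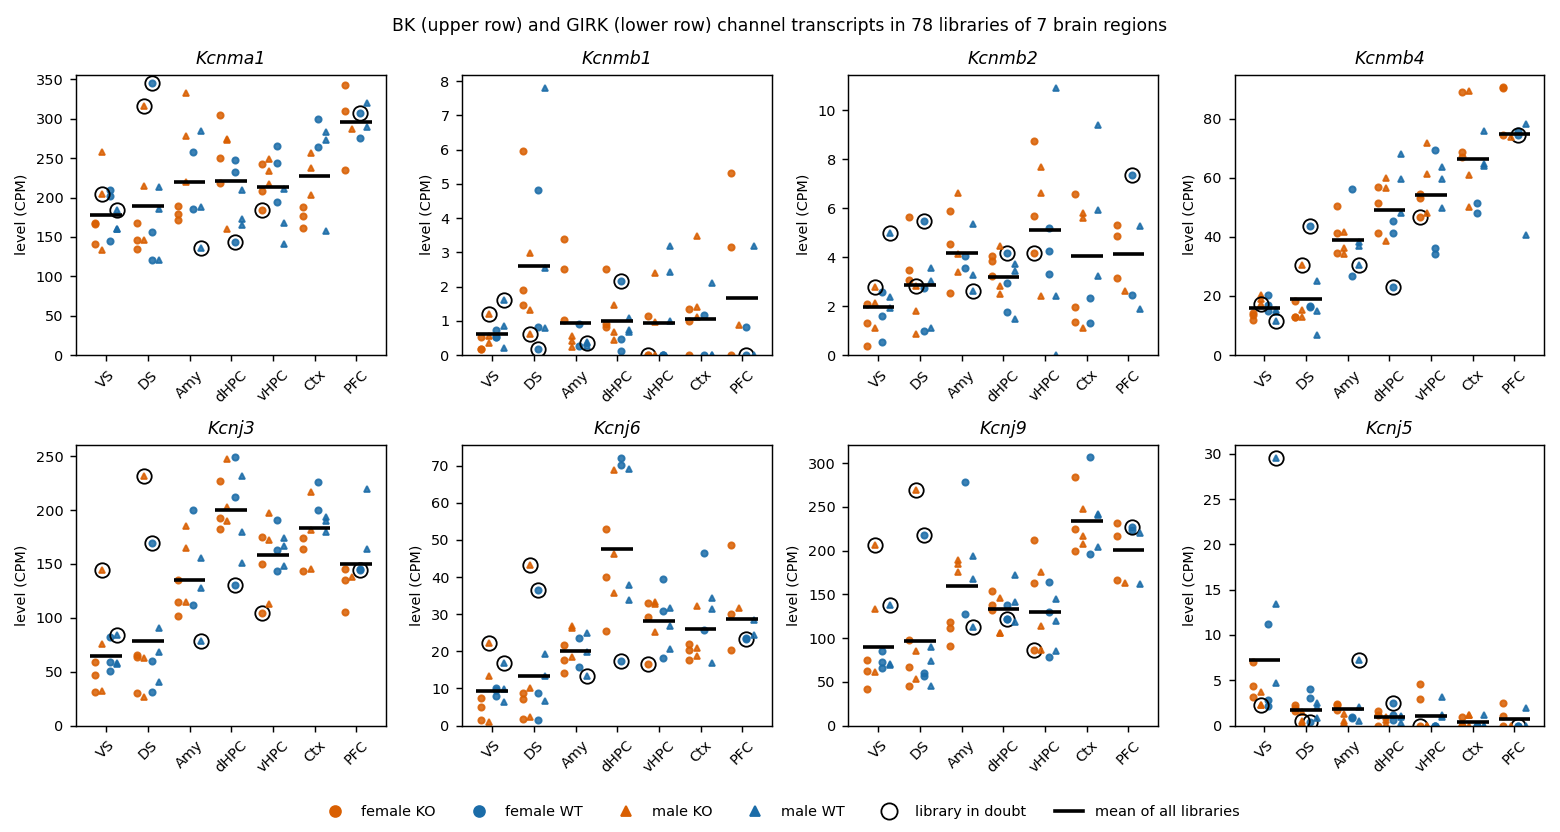
Level of each gene in CPM (linear axes starting at 0) in every library of ventral striatum (VS), dorsal striatum (DS), amygdala (Amy), dorsal and ventral hippocampus (dHPC, vHPC), cortex (Ctx) and prefrontal cortex (PFC), coloured by genotype, shaped by sex, with the regional mean as a bar and the 8 libraries in doubt circled. Kcnj3, Kcnj6, Kcnj9 and Kcnmb4 are lowest in the striatal regions, where the circled dorsal striatum libraries are the highest of their region, and Kcnj5 is highest in the ventral striatum.

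Among the pairs, members passed as follows, with the share of all 16110 tested genes that passed in brackets. Pairs among both striatal regions, the amygdala and the dorsal hippocampus lie within a numbering series. So do pairs among the ventral hippocampus, cortex and prefrontal cortex. All other pairs lie between the series, where depth, numbering series and region cannot be told apart. The ventral striatum differed in 7 of 8 members from the amygdala (41.7%), the dorsal hippocampus (48.9%), the cortex (52.9%) and the prefrontal cortex (39%), and in 6 from the ventral hippocampus (46.9%). The dorsal striatum differed in 5 from the dorsal hippocampus (49.6%), ventral hippocampus (47.3%), cortex (50.8%) and prefrontal cortex (42.8%), and in 4 from the amygdala (50.3%). Between the 2 striatal regions 2 members passed (12.6%). The amygdala differed in 3 from the dorsal hippocampus (35.4%), in 2 from the cortex (40.2%), in 1 from the prefrontal cortex (22.1%) and in 0 from the ventral hippocampus (24.3%). The dorsal hippocampus differed in 2 from the cortex (42%), in 1 from the prefrontal cortex (33.4%) and in 0 from the ventral hippocampus (19.2%). The ventral hippocampus differed in 1 from the cortex (22.2%) and in 2 from the prefrontal cortex (22.8%), and no member passed between cortex and prefrontal cortex (29.2%).

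**Figure D2:**
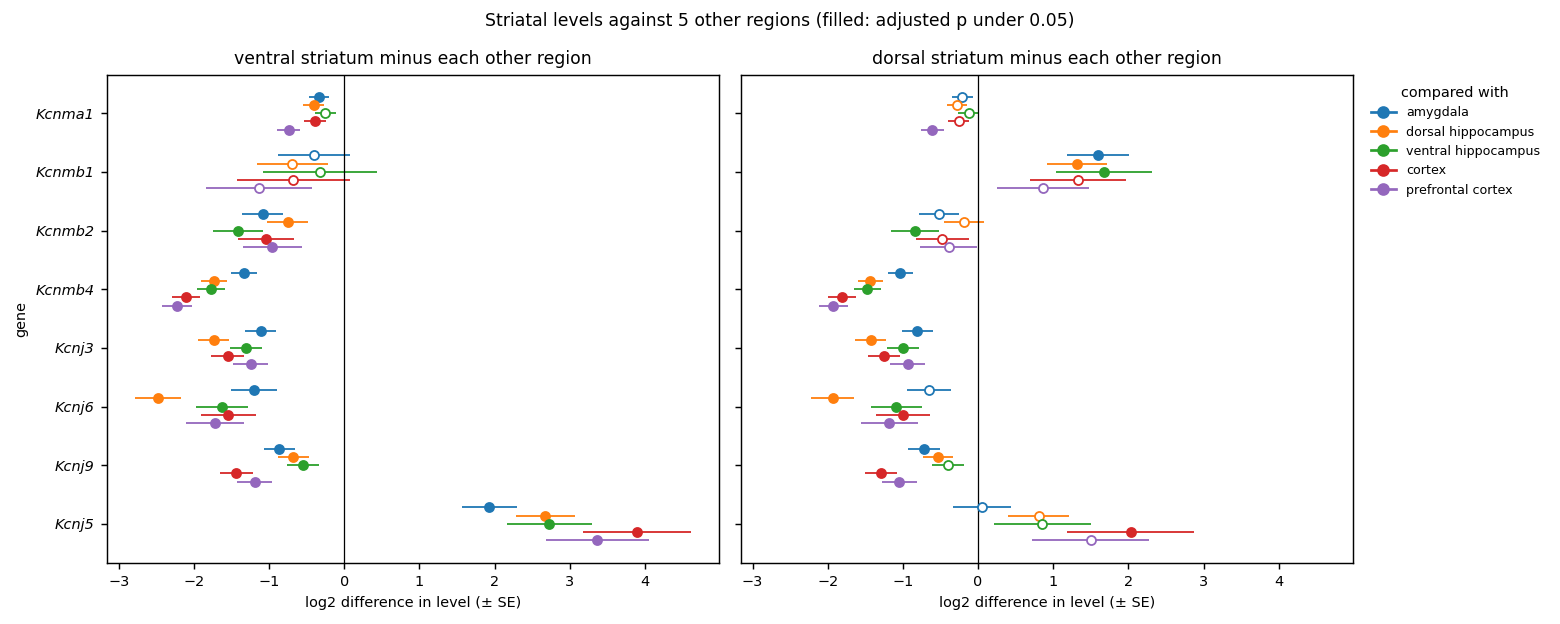
Log2 difference in level with its standard error (horizontal axis) between the ventral (left) or dorsal (right) striatum and each of 5 other regions, for the 8 genes, with filled points where the adjusted p was under 0.05. Kcnmb4, Kcnj3, Kcnj6 and Kcnj9 lie left of 0 in all 10 comparisons, and Kcnj5 lies right of 0 in all 10.

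Kcnma1 (chr14:23289431-24014491, minus strand), the gene of the BK pore, had the flattest distribution of the 8. Its mean level ran from 178 ± 36 CPM (SD, n = 12) in the ventral striatum through 189 ± 73 in the dorsal striatum (n = 12), 213 ± 37 in the ventral hippocampus (n = 12), 220.0 ± 60.0 in the amygdala (n = 11), 221 ± 52 in the dorsal hippocampus (n = 12) and 227 ± 52 in the cortex (n = 11) to 296 ± 32 in the prefrontal cortex (n = 8). The highest mean was 1.67 times the lowest. No neighbours in this order differed past the threshold. The ventral striatum was lower than the dorsal hippocampus by 0.41 ± 0.14 on the log2 scale (SE, adjusted p = 0.0097), a call that was lost without mouse 6 (adjusted p = 0.0788). The ventral hippocampus was lower than the prefrontal cortex by 0.48 ± 0.16 (adjusted p = 0.0185), a call lost without mouse 12 (adjusted p = 0.0503). The difference from the amygdala passed narrowly in the ventral striatum (log2 -0.34 ± 0.14, adjusted p = 0.0434; not passed with DESeq2's Wald test or with the mouse as a block) and not in the dorsal striatum (-0.21 ± 0.14, adjusted p = 0.21). In the dorsal striatum the libraries in doubt were the highest, at 316 and 345 CPM, above all others at 121 to 215 CPM. Without the libraries in doubt the dorsal striatum was lower than the amygdala by 0.47 (log2, adjusted p = 0.0012). Its mean was then 161 ± 34 CPM, below that of the ventral striatum at 174 ± 38 CPM.

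Kcnmb4 (chr10:116417861-116473878, minus strand) encodes beta4, the beta subunit of most brain neurons, and was the most abundant of the 3 beta subunit transcripts in every region per length as well as in CPM. It averaged 74.9 ± 15.5 CPM in the prefrontal cortex, 66.4 ± 14.1 in the cortex, 54.1 ± 11.8 in the ventral and 49.2 ± 12.2 in the dorsal hippocampus, 38.8 ± 8.5 in the amygdala, and 18.9 ± 9.9 and 15.8 ± 3.0 in the dorsal and ventral striatum. The range in the ventral striatum, 11.6 to 20.4 CPM, did not reach the lowest amygdala library at 26.6 CPM. The 10 dorsal striatal libraries not in doubt lay between 6.83 and 25.1 CPM. Their mean was 15.2 ± 4.7 CPM, beside 16.1 ± 2.9 CPM in the ventral striatum without its libraries in doubt. The step from the dorsal striatum to the amygdala was 1.03 ± 0.17 (log2, adjusted p = 3.46e-07), and that from the ventral striatum to the dorsal hippocampus was 1.73 ± 0.17 (log2, adjusted p = 3.92e-14). Cortex and prefrontal cortex were not separated (log2 difference -0.11 ± 0.21, adjusted p = 0.73).

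The ratio of the beta4 to the pore transcript was lowest in the striatum. Levels of different genes were set against each other after division by exonic length (GENCODE M21), 3.32 kb for Kcnmb4 and 16.98 kb for Kcnma1. Per kb, Kcnmb4 stood at 0.464 ± 0.102 times Kcnma1 in the ventral striatum and at 0.501 ± 0.126 times in the dorsal striatum. The ratio was 0.944 ± 0.255 in the amygdala, 1.20 ± 0.47 and 1.33 ± 0.34 in the dorsal and ventral hippocampus, 1.60 ± 0.62 in the cortex and 1.32 ± 0.36 in the prefrontal cortex. In 24 striatal libraries it ran from 0.289 to 0.724, and in the cortex from 0.881 to 2.81. These ranges did not overlap, but depth, numbering series and region cannot be told apart between them. Without the libraries in doubt the striatal range was the same, with means of 0.481 ± 0.100 (ventral) and 0.487 ± 0.130 (dorsal). Both dorsal striatum libraries in doubt, with low striatal and high excitatory markers, lay within the striatal range and below the cortex. The lowest libraries of the amygdala (0.558), the prefrontal cortex (0.648) and the dorsal hippocampus (0.720) lay within the striatal range. The exonic length of Kcnma1 sums the exons of all its annotated isoforms, which lowers its level per kb, so the ratio compares regions and is no count of subunits.

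Kcnmb2 (chr3:31902507-32200180, plus strand) encodes beta2, which makes BK current inactivate. Its level was low everywhere, from 1.98 ± 1.22 CPM in the ventral striatum and 2.88 ± 1.58 in the dorsal striatum to 3.20 ± 0.94 in the dorsal hippocampus, 4.18 ± 1.32 in the amygdala and 5.12 ± 3.04 in the ventral hippocampus. The ventral striatum was lower than the amygdala (log2 -1.09 ± 0.28, adjusted p = 0.00086) and the dorsal hippocampus (-0.75 ± 0.28, adjusted p = 0.0185). The latter call was lost without mouse 2, 6 or 23 (adjusted p = 0.053 to 0.0689). In the shallower libraries it rested on at most 11 counts a library, so its level there, 4.06 ± 2.75 CPM in the cortex and 4.12 ± 1.88 in the prefrontal cortex, lay at about the floor.

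Kcnmb1 (chr11:33963013-33973641, plus strand) encodes beta1, the beta subunit of smooth muscle. It was low outside the dorsal striatum, with means of 0.618 ± 0.435 CPM in the ventral striatum, 0.934 ± 1.050 in the amygdala and 1.00 ± 0.71 in the dorsal hippocampus, and at most 6 counts in any library of the 3 shallow regions. It lay at or under the floor of 3 counts in 8 of 12 ventral striatum, 6 of 11 amygdala and 2 of 12 dorsal hippocampus libraries. In the dorsal striatum it averaged 2.59 ± 2.40 CPM, higher than in the ventral striatum by 2.00 ± 0.43 (log2, adjusted p = 0.00077), the amygdala by 1.60 ± 0.41 (adjusted p = 0.00077) and the dorsal hippocampus by 1.31 ± 0.40 (adjusted p = 0.0044). Most of that level came from few libraries. The dorsal striatum of male WT mouse 13 had 7.80 CPM, that of female KO mouse 5 had 5.96 CPM and that of female WT mouse 24 had 4.82 CPM, while the other 9 lay between 0.171 and 2.97 CPM. Choroid plexus markers (5 genes, among them Ttr) summed to 2819, 5443 and 855 CPM in those 3 libraries. The sum was 6561 CPM in that of female KO mouse 6, where Kcnmb1 was 1.89 CPM, and 1.37 to 131 CPM in the other 8. Smooth muscle markers (6 genes, none of them at 0) summed to 42.4 to 50.6 CPM in the 3 high libraries, within the regional range of 35.3 to 168 CPM. What part choroid plexus RNA had in the level was not tested.

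The GIRK1 gene Kcnj3 (chr2:55435970-55598145, plus strand), whose subunit joins most neuronal GIRK channels, was highest in the dorsal hippocampus and lowest in the striatum. It averaged 199.7 ± 36.5 CPM in the dorsal hippocampus, 183 ± 26 in the cortex, 158 ± 28 in the ventral hippocampus, 149.8 ± 32.7 in the prefrontal cortex, 135 ± 37 in the amygdala, 78.1 ± 61.7 in the dorsal striatum and 64.9 ± 30.1 in the ventral striatum. The only neighbours in this order that differed past the threshold were the amygdala and the dorsal striatum (log2 difference 0.81 ± 0.20, adjusted p = 0.00062). In the dorsal striatum the libraries in doubt stood at 232 and 169 CPM, and the other 10 lay between 26.1 and 90.7 CPM. Without the libraries in doubt the mean there was 53.7 ± 21 CPM beside 55.05 ± 16.2 CPM in the ventral striatum (log2 difference -0.01, adjusted p = 0.989), and the difference from the amygdala grew to 1.40 (log2, adjusted p = 1.55e-12).

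Kcnj6 (chr16:94748636-94997701, minus strand) encodes GIRK2 and had the widest regional range of the GIRK genes that all regions expressed above the floor. Its mean was 47.5 ± 18.9 CPM in the dorsal hippocampus, 28.8 ± 8.8 in the prefrontal cortex, 28.1 ± 6.9 in the ventral hippocampus, 26.1 ± 9.1 in the cortex, 20.2 ± 4.8 in the amygdala, 13.3 ± 13.5 in the dorsal striatum and 9.25 ± 6.06 in the ventral striatum, a span of 5.13 times (6.97 times without the libraries in doubt). The dorsal hippocampus exceeded the amygdala by 1.28 ± 0.29 (log2, adjusted p = 0.00025), the dorsal striatum by 1.94 ± 0.29 (adjusted p = 4.11e-08) and the ventral striatum by 2.48 ± 0.30 (adjusted p = 1.01e-10). It also exceeded the cortex past the threshold, but not the ventral hippocampus or the prefrontal cortex. The log2 difference from the prefrontal cortex was 0.76 ± 0.36 (edgeR's quasi-likelihood test, adjusted p = 0.10). No neighbours in this order differed past the threshold with all libraries. Within the dorsal hippocampus itself the level varied from 17.4 CPM in the library in doubt, and from 25.6 CPM in the others, to 72.0 CPM. The difference between the dorsal striatum and the amygdala missed the threshold with all libraries (log2 -0.66 ± 0.30, adjusted p = 0.058). It passed with the mouse as a block (-0.70 ± 0.29, adjusted p = 0.0411) and without the libraries in doubt (-1.41, adjusted p = 2.18e-06).

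Kcnj9 (chr1:172320501-172329318, minus strand) encodes GIRK3, a subunit that can direct GIRK channels away from the surface. It was highest in neocortex, at 234 ± 36 CPM in the cortex and 201 ± 31 in the prefrontal cortex, followed by 159 ± 54 in the amygdala, 133 ± 19 in the dorsal and 129.7 ± 42.8 in the ventral hippocampus, 96.7 ± 71.4 in the dorsal striatum and 90.1 ± 46.3 in the ventral striatum. The ventral hippocampus was lower than the cortex by 0.89 ± 0.22 (log2, adjusted p = 0.0019), in libraries of the same numbering series. It was also lower in the ventral hippocampus than in the prefrontal cortex (-0.65 ± 0.24, adjusted p = 0.0441) and in the dorsal striatum than in the dorsal hippocampus (-0.53 ± 0.21, adjusted p = 0.0258). These calls were lost in 7 and 9 of the 12 fits that each left out 1 mouse. No neighbours in its order differed past the threshold, except, with the mouse as a block, the ventral hippocampus and the dorsal striatum (dorsal striatum lower, log2 -0.50 ± 0.20, adjusted p = 0.035). The dorsal striatal libraries in doubt held 269 and 218 CPM, and the other 10 held 45.4 to 97.5 CPM. Without the libraries in doubt the mean was 67.3 ± 18.5 CPM in the dorsal and 73.7 ± 23.7 CPM in the ventral striatum.

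Per kb of exon, Kcnj9 and Kcnj3 made up most of the GIRK transcript pool in every region. The mean share of Kcnj9 was the larger outside the hippocampus, and that of Kcnj3 was the larger in the dorsal hippocampus. Of the summed level per kb of the 4 GIRK genes, Kcnj9 held 57.8 ± 5.1% in the ventral and 57.9 ± 8.0% in the dorsal striatum, 58.5 ± 3.7% in the cortex, 55.6 ± 5.1% in the amygdala and 59.0 ± 6.4% in the prefrontal cortex. It held 41.3 ± 5.8% in the dorsal and 46.1 ± 6.8% in the ventral hippocampus, where Kcnj3 held 50.4 ± 4.2% and 47.7 ± 6.0%. The means of the ventral hippocampus lay within an SD of each other, and no difference between shares was tested. The dorsal hippocampus and the cortex did not overlap in the share of Kcnj9, at 30.4 to 50.6% against 52.3 to 64.8%. Depth, numbering series and region cannot be told apart between these 2 regions. Within a series there was overlap, of the ventral hippocampus (33.3 to 56.1%) with the cortex and of the dorsal hippocampus with the amygdala (45.8 to 61.5%). Kcnj6 held most in the dorsal hippocampus, 8.01 ± 2.48%, and least in the ventral striatum, 3.09 ± 1.17%. These shares describe transcripts, not channels. The exonic lengths sum the exons of all annotated isoforms, so the order between genes depends on them.

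**Figure D3:**
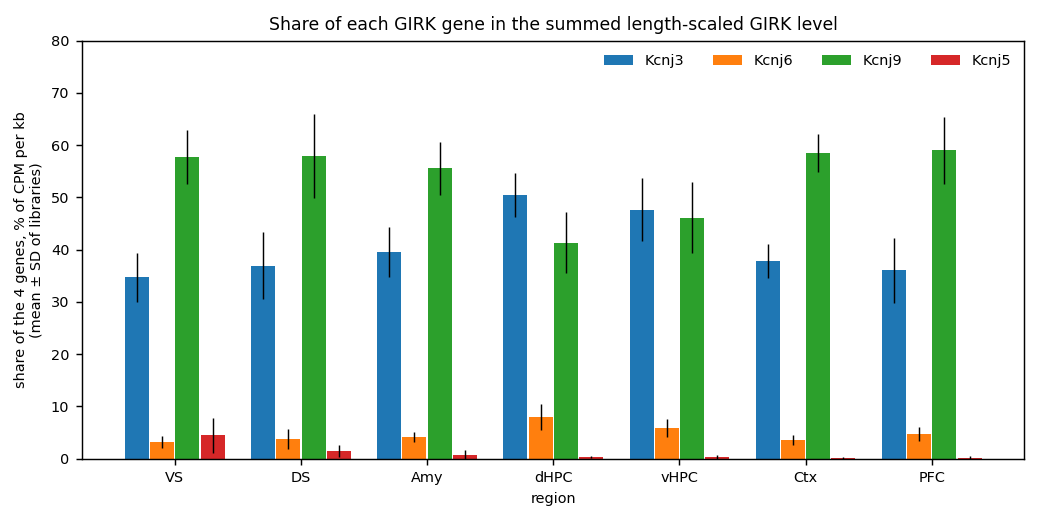
Share of each GIRK gene in the summed GIRK level per kb (vertical axis, percent, mean with SD over all libraries of a region). Kcnj9 has the largest share in 5 of the 7 regions, and in the dorsal hippocampus Kcnj3 at 50.4% stands above Kcnj9 at 41.3%.

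Kcnj5 (chr9:32314707-32344350, minus strand) encodes GIRK4, best known from the heart and scarce in forebrain. It was the only GIRK gene higher in the ventral striatum than elsewhere. Its mean was 7.21 ± 7.90 CPM there against 1.82 ± 1.95 in the amygdala, 1.73 ± 1.15 in the dorsal striatum and 0.909 ± 0.681 in the dorsal hippocampus. The ventral striatum exceeded the amygdala by 1.93 ± 0.37 (log2, adjusted p = 1.27e-05), the dorsal striatum by 1.87 ± 0.36 (adjusted p = 0.00018) and the dorsal hippocampus by 2.68 ± 0.39 (adjusted p = 1.58e-08). In the 3 shallow regions no library had more than 4 counts, so its level there could not be told from the floor. The ventral striatal level was uneven. It was 29.5 CPM in male WT mouse 13, whose library is in doubt, 13.4 CPM in male WT mouse 12 and 11.2 CPM in female WT mouse 11, and 2.18 to 6.97 CPM in the other 9 libraries. Those 3 libraries had striatal marker sums of 438, 3370 and 1673 CPM. The sum was 1046 CPM in the other library in doubt, where Kcnj5 was 2.25 CPM, and 4347 to 9226 CPM in the remaining 8. Without the libraries in doubt the excess over the dorsal striatum was 1.43 (log2, adjusted p = 0.00087) and over the amygdala 2.01 (adjusted p = 1.10e-06).

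Within the striatum, the libraries with the lowest Kcnj6 were among those with the lowest excitatory neuron markers. The striatum itself holds hardly any neurons that express Slc17a7, the vesicular glutamate transporter of cortex and hippocampus. In the dorsal striatum, the excitatory marker sum was 29 CPM in female KO mouse 6 and 31.3 CPM in female WT mouse 11, and Kcnj6 was 1.74 and 1.45 CPM. The sum was 1092 CPM in male WT mouse 3, where Kcnj6 was 19.3 CPM, and 2132 and 2219 CPM in the libraries in doubt, where Kcnj6 was 43.3 and 36.5 CPM. In the ventral striatum, Kcnj6 was 1.59 and 0.889 CPM at the lowest sums, 38.6 and 54.4 CPM, and 13.3 and 22.1 CPM at the highest, 952 and 1021 CPM. Between them there was no such order. At sums of 84.8 to 568 CPM, 7 ventral striatal libraries held 5.06 to 10.2 CPM, with 9.63 CPM at the sum of 84.8 CPM and 7.99 CPM at that of 568 CPM. The ventral striatum of male WT mouse 13, in doubt, held 16.9 CPM at a sum of 136 CPM, and the dorsal striatum of the same mouse held 13.3 CPM at a sum of 49.97 CPM. Kcnj3 kept 26.1 to 30.8 CPM and Kcnj9 45.4 to 56.2 CPM in the 3 dorsal striatal libraries where Kcnj6 was under 2.2 CPM. Fewer cells of a type and less RNA per cell cannot be told apart in dissected tissue, and the part of neighbouring cortex in the striatal values was not tested.

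**Figure D4:**
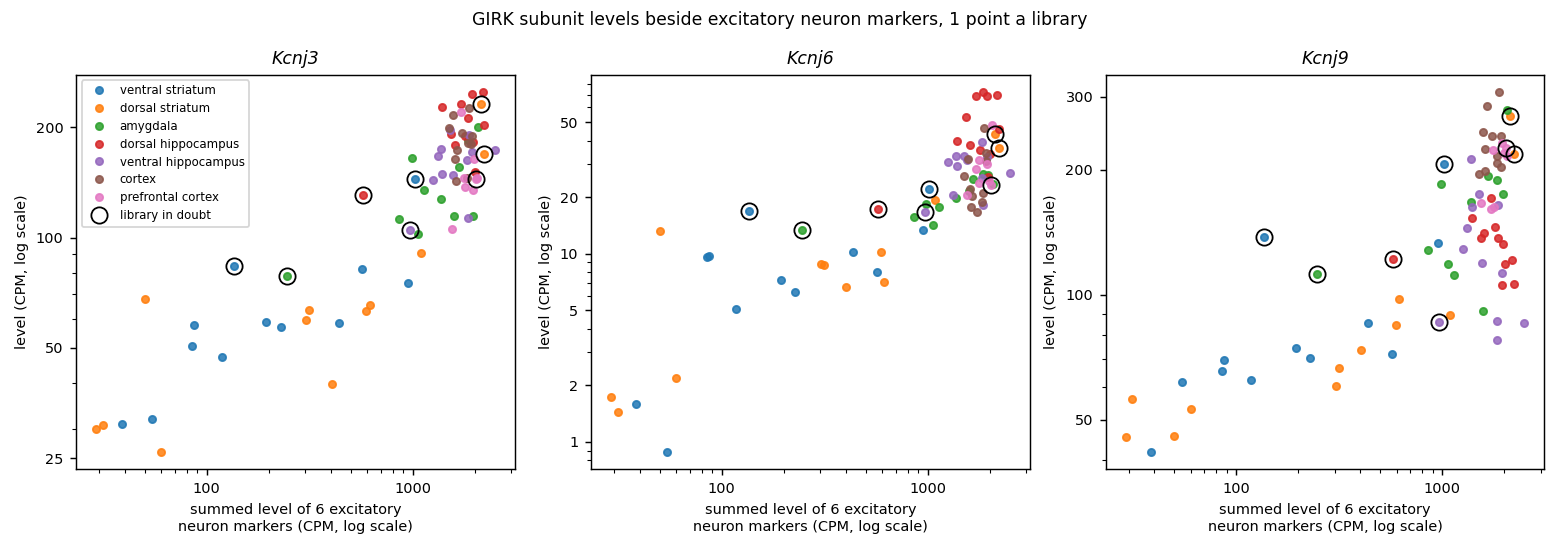
Level of Kcnj3, Kcnj6 and Kcnj9 (CPM, log scale) against the summed level of 6 excitatory neuron markers (CPM, log scale), 1 point a library, coloured by region, with the libraries in doubt circled. Striatal libraries extend to the lower left, down to 0.889 CPM for Kcnj6, and both circled dorsal striatum libraries lie among the cortical and hippocampal ones.

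The genes whose levels ran most like each member over the 78 libraries were taken from 11530 genes with a median of at least 5 CPM. Pearson's r of log2 CPM is given as a description, over libraries that share mice, depth and region. For Kcnj3 they were Dlgap1 (r = 0.960), Mfsd4a (0.944) and Mical2 (0.942), and for Kcnj6 they were Kcnj3 (0.920), Nptx1 (0.911) and Bdnf (0.906). For Kcnj9 they were Efhd2 (0.903), Wnt9a (0.898) and Fam81a (0.891), and for Kcnmb4 they were Epn1 (0.910), Dgkz (0.891) and Tmem160 (0.883). For Kcnma1 they were Syt1 (0.831), Nrcam (0.827) and Bsn (0.816). Likeness was weaker for the scarce members. The first gene was Ptch1 for Kcnj5 (0.726), followed by Aldh5a1 (0.720) and Rcan3 (0.719). It was Foxj1 for Kcnmb1 (0.618), a gene of ciliated cells, followed by Txnip (0.591) and Pcolce2 (0.565). It was Me1 for Kcnmb2 (0.549), followed by Mdp1 (0.540) and Tuba1b (0.521). Dlgap1 and Bsn encode scaffold proteins of the synapse, and Syt1 the calcium sensor of transmitter release.

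Genes that work with these channels were higher in the dorsal striatum than in the dorsal hippocampus in some cases and lower in others. Of 15 regulators of GIRK channels (G protein beta and gamma subunits, RGS proteins and partners), 8 were higher and 3 lower in the dorsal striatum than in the dorsal hippocampus, with a median log2 difference of 0.35 against 0.01 over all genes, of which 49.6% passed in this pair in either direction. Gng7, the striatal G protein gamma subunit, stood at 1011 CPM against 243 CPM (log2 1.99 ± 0.30, adjusted p = 5.36e-08), and Gnb5, the partner of the RGS7 family, at 292 against 107 CPM (log2 1.41 ± 0.14, adjusted p = 6.20e-14). Gng2 was lower, at 111 against 299 CPM (log2 -1.48 ± 0.19, adjusted p = 2.42e-10). Of 12 receptors that open GIRK channels, 7 were higher and 3 lower, with a median log2 difference of 0.74. Drd2 (log2 5.24 ± 0.56, adjusted p = 8.33e-13) and Oprk1 (4.37 ± 0.40, adjusted p = 2.04e-15) were higher and the GABA-B subunit gene Gabbr2 was lower (-1.34 ± 0.19, adjusted p = 5.08e-09). Drd2 is also a striatal marker. Of 9 BK partners, the 3 genes Kcnmb3, Lrrc26 and Lrrc52 had too few counts to be tested, and of the 6 tested 0 were higher and 3 lower, among them the P/Q-type calcium channel gene Cacna1a (log2 -0.82 ± 0.12, adjusted p = 9.48e-09). Of 12 other calcium-activated, sodium-activated and inward rectifier potassium channel genes tested, 5 were higher and 3 lower. The striatal inward rectifier Kcnj2 was 46.6 against 16 CPM (log2 1.50 ± 0.20, adjusted p = 1.44e-09), and the sodium-activated channel Kcnt1 was 185 against 40.8 CPM (log2 2.16 ± 0.20, adjusted p = 2.28e-15).

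No BK or GIRK gene differed past the threshold between Acss2 KO and WT mice. For the mean of the sexes, 0 of 45 tests of members with enough counts had an adjusted p under 0.05 over the 7 regions (edgeR's quasi-likelihood test). Among all genes tested, the share called was 0.00708% in the ventral and 0.00689% in the dorsal striatum, 0.00690% in the dorsal and 0.00929% in the ventral hippocampus, 0.00657% in the amygdala and 0.00947% in the cortex, which is 1 gene each, Acss2. It was 0.0420% in the prefrontal cortex, 5 genes. There, striatal markers summed to 685 to 2075 CPM in KO and 229 to 366 CPM in WT libraries, so that striatal marker level and genotype moved together, and no member passed. Within males 0 of 45 tests passed, with the same 1 gene called in each region (shares as above) but 0% in the prefrontal cortex. Within females 0 of 45 passed, where 0% of genes were called in the ventral striatum and 0.269% in the prefrontal cortex and the share was as above in the other 5 regions. The test of a sex difference in the KO effect also called 0 of 45 tests and 0% of all genes in each region. DESeq2's Wald test called 0 members in each of these comparisons. Per mouse, over all its regions, 0 of 8 members passed (all genes 0.00621%).

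Unadjusted p-values under 0.05 were 5 of 45 for the mean of the sexes, against 4.84% of all genes, 4 of 45 in males (4.8%), 7 of 45 in females (4.46%) and 6 of 45 for the sex difference (4.27%). The precision bounds what could be seen. Per mouse, the log2 KO effect of Kcnma1 was 0.05 ± 0.08, that of Kcnmb4 0.11 ± 0.06, that of Kcnj3 -0.10 ± 0.12, that of Kcnj6 -0.20 ± 0.17 and that of Kcnj9 0.00 ± 0.12 (SE). For the scarce genes it was 0.32 ± 0.20 for Kcnmb1, 0.11 ± 0.16 for Kcnmb2 and -0.21 ± 0.27 for Kcnj5. Without the libraries in doubt, the effects of Kcnj3 and Kcnj6 were larger, at -0.21 ± 0.07 and -0.32 ± 0.12, with an adjusted p of 0.735 for both.

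**Figure D5:**
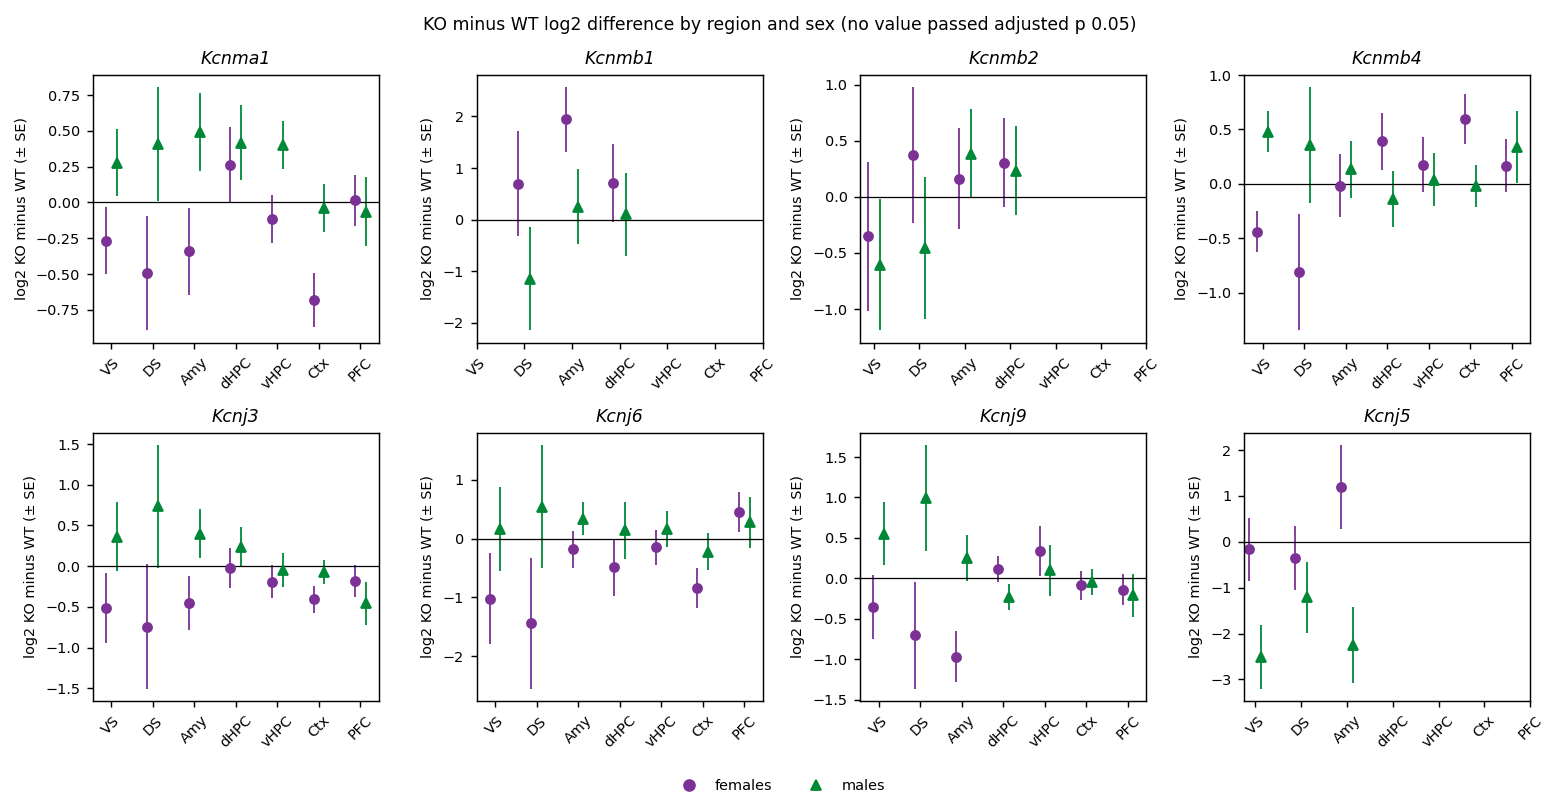
Log2 difference of KO minus WT with its standard error (vertical axis) by region for each gene, females as circles and males as triangles; regions without a point had too few counts for a test. No value passed an adjusted p of 0.05, and for Kcnmb4 in the ventral striatum the sexes lie on opposite sides of 0.

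Kcnmb4 in the ventral striatum had KO minus WT differences of opposite sign in males and females, neither of which passed. In males it was 18.9, 20.2 and 17.3 CPM in KO mice 1, 2 and 10 and 15.3, 14.5 and 11.6 CPM in WT mice 3, 12 and 13. In females it was 11.8, 13.4 and 14.2 CPM in KO mice 4, 5 and 6 and 14.8, 17.1 and 20.4 CPM in WT mice 11, 23 and 24. All 3 male KO values were above, and all 3 female KO values below, the WT values of their sex. Groups without overlap were seen for 15.8% of genes in males and 7.57% in females there. The log2 difference was 0.48 ± 0.19 in males (unadjusted p = 0.026, adjusted p = 0.49) and -0.44 ± 0.19 in females (unadjusted p = 0.0378, adjusted p = 0.9997). The sex difference of -0.92 ± 0.27 had an unadjusted p of 0.0049 and an adjusted p of 0.94. Without the libraries in doubt it was -0.85 ± 0.29 (adjusted p = 0.998). The counts behind these values were 71 to 114 a library.

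Kcnj5 in the male ventral striatum stood at 3.74, 2.22 and 2.25 CPM in KO mice 1, 2 and 10 against 4.72, 13.4 and 29.5 CPM in WT mice 3, 12 and 13. The groups did not overlap, as for 15.8% of all genes in this set, and the log2 difference was -2.50 ± 0.70 (unadjusted p = 0.0039, adjusted p = 0.49). It passed when genes with low counts were kept in the fit (adjusted p = 0.012). In females the KO values, 6.97, 4.36 and 3.18 CPM, lay among the WT values of 11.2, 2.18 and 2.87 CPM. The highest male WT library is that in doubt, with a striatal marker sum of 438 CPM where the other male WT libraries had 3370 and 4347 CPM. Without it and the library of male KO mouse 10, also in doubt, the difference was -1.55 ± 0.76 (adjusted p = 0.811). In the amygdala Kcnj5 showed the same sign in males (log2 -2.25 ± 0.82, adjusted p = 0.91), with 7.26 CPM in the library in doubt of male WT mouse 12 against 0.224 to 2.02 CPM in the other 5 male libraries.

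In the cortex 4 of the 5 members tested had an unadjusted p under 0.05 between female KO and WT libraries. Among all genes tested there, 9.58% had one. No member passed after adjustment. Kcnma1 was 177, 187 and 162 CPM in KO mice 4, 5 and 6 and 299.6 and 264 CPM in WT mice 11 and 24 (log2 -0.68 ± 0.19, unadjusted p = 0.0012, adjusted p = 0.35). Kcnj6 was 17.7, 20.2 and 22 CPM against 46.5 and 25.8 CPM (log2 -0.84 ± 0.34, adjusted p = 0.49). Kcnj3 was 143, 174 and 164 CPM against 226 and 199.6 CPM (log2 -0.41 ± 0.17, adjusted p = 0.49). Kcnmb4 had the other sign, at 67.1, 68.8 and 89.1 CPM against 51.7 and 48.1 CPM (log2 0.60 ± 0.23, adjusted p = 0.48). KO and WT did not overlap for these 4 genes, as for 26.9% of all genes with these 3 and 2 libraries. In males the ranges overlapped for all 4 genes. Over all 13 sets of a sex and region with more than 1 library a group, filtered members included, 13 of 104 member sets did not overlap, 5 with KO higher and 8 with KO lower, and 11.7% of gene sets over all tested genes did not.

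Other values under an unadjusted p of 0.05 were Kcnj9 in the female amygdala (log2 -0.97 ± 0.31, adjusted p = 0.999), Kcnmb1 in the female amygdala (1.94 ± 0.63, adjusted p = 0.999) and Kcnma1 in the male ventral hippocampus (0.40 ± 0.17, adjusted p = 0.608). For the mean of the sexes they were Kcnma1 (-0.36 ± 0.13, adjusted p = 0.586), Kcnj6 (-0.53 ± 0.23, adjusted p = 0.632) and Kcnj3 (-0.24 ± 0.11, adjusted p = 0.665) in the cortex, Kcnj5 in the ventral striatum (-1.33 ± 0.49, adjusted p = 0.657) and Kcnmb1 in the amygdala (1.1 ± 0.49, adjusted p = 0.998). For the sex difference they were Kcnj5 in the ventral striatum (2.34 ± 0.98, adjusted p = 0.943) and in the amygdala (3.44 ± 1.24, adjusted p = 0.88), Kcnj9 in the amygdala (-1.22 ± 0.42, adjusted p = 0.88), and Kcnma1 in the cortex (-0.64 ± 0.25, adjusted p = 0.893) and the ventral hippocampus (-0.52 ± 0.24, adjusted p = 0.727). Kcnmb1 in the female amygdala was 2.52, 3.39 and 1.02 CPM in KO mice 4, 5 and 6 and 0.252 and 0.918 CPM in WT mice 23 and 24. The choroid plexus sums of these libraries were 5580, 9034 and 128 CPM in KO and 438 and 519 CPM in WT. The part of choroid plexus RNA in this difference was not tested.

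Females and males did not differ past the threshold in any member. With the genotypes averaged, 0 of 45 tests passed, where the share of all genes called was 0.0425% in the ventral and 0.0482% in the dorsal striatum, 0.0414% in the dorsal and 0.0464% in the ventral hippocampus, 0.0328% in the amygdala, 0.0758% in the cortex and 0.0168% in the prefrontal cortex. Unadjusted p-values under 0.05 were 2 of 45 (6.86% of all genes). Kcnmb1 was higher in the female amygdala by 1.64 ± 0.49 (log2, adjusted p = 0.17), where the choroid plexus sums above were high, and Kcnj9 lower in the female ventral striatum by 0.71 ± 0.28 (adjusted p = 0.985), or by 0.30 ± 0.22 without the libraries in doubt (adjusted p = 0.99996). DESeq2's Wald test called 0 members in this comparison as well.

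The lists of partner genes gave 0 calls between KO and WT, for the mean of the sexes, in 39 tests of BK partners, 105 of GIRK regulators, 76 of GIRK-opening receptors and 79 of other potassium channels. Unadjusted p-values under 0.05 were 2, 9, 7 and 3, where 4.84% of tests over all genes had one. The smallest were for the D2 dopamine receptor gene Drd2 and for Gng7, both in the prefrontal cortex. Drd2 was 11.6 to 73.7 CPM in 4 KO and 0 to 12.2 CPM in 4 WT libraries (log2 3.80 ± 0.72, adjusted p = 0.073), and Gng7 was 158 to 412 CPM against 85.7 to 199 CPM (log2 1.21 ± 0.27, adjusted p = 0.13). The striatal marker list, which holds Drd2, was higher in all 4 KO than in all 4 WT libraries there, as given above, and its part in these values was not tested. Lrrc55, a BK gamma subunit gene, and Cacna1b, the N-type calcium channel gene, were the first of the BK partners, at log2 -1.73 ± 0.58 in the prefrontal cortex (adjusted p = 0.39) and -0.32 ± 0.13 in the cortex (adjusted p = 0.63). Among the other channels these were the glial inward rectifier Kcnj10 (-0.73 ± 0.27) and Kcnt1 (0.39 ± 0.17), both in the ventral striatum with an adjusted p of 0.66.

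Overlapping genes limit the counts of some members, since the library kit does not mark strand. Reads of a gene and of its antisense partner cannot be told apart where exons overlap. The antisense gene Kcnmb4os2 shares 693 exonic bases with Kcnmb4 and was given 827 counts over all libraries. 4930519K11Rik shares 1016 with Kcnma1 (393 counts), and Gm41505 shares 380 with Kcnj6 (37 counts). Gm26794 shares 1621 exonic bases with Kcnj3 and is not among the gene symbols of the deposited tables under this name. Whether its reads were counted to Kcnj3 is not known. Kcnmb1 lies opposite to Kcnip1 and shares no exonic base with it.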

How the data were processed

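The authors deposited unnormalized counts of reads per gene, as 1 table for each sex. The submitters' processing notes name STAR 2.5.2a, SAMtools 1.1, HTSeq 0.6.1, DESeq2, R 4.0.2 and the builds GRCm38 and mm10. Counting strand and filters are not given in the sources used here. Groups and mice came from the titles, and the 78 libraries fall into 28 groups of 1 to 3, each library from 1 mouse and region. CPM is the count scaled to a column total of 1000000. Exonic lengths came from GENCODE M21 by symbol (53365 of 55367 symbols matched).

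All genes were fitted in R 4.3.3 with edgeR 4.0.16 (quasi-likelihood test; limma 3.58.1 for values per mouse) with TMM scaling, genes kept at a minimum count of 10 and total of 15, and Benjamini-Hochberg adjustment with a threshold of 0.05. KO and WT were compared within each region in 1 fit of 4 sex and genotype groups, region pairs in 1 fit of 78 libraries, and the per-mouse comparison with limma on the mean log2 CPM (prior count 2) per mouse, regional differences removed. Fits were checked on simulated data. Alternatives were DESeq2's size factors and Wald test (DESeq2 1.42.0), no low-count filter, the mouse as a block, other sets of libraries and leaving out each library. Leaving out the 8 libraries in doubt was chosen after seeing the data (own-region markers under 0.25 of the regional median, striatal markers over 10 times the median outside striatum, or sex genes against the label). The mouse pairs libraries over regions, per the labels. Deviations of libraries of the same mouse correlated at a median of 0.01.

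The members and lists were chosen with earlier results of these data known. The rule named all 8 members, with statistics for those under an adjusted or else an unadjusted p of 0.05. For the region pairs, statistics are printed for some of the calls only and the others are given as counts. Partner lists name the genes with the smallest p, and in the region comparison the examples were chosen after their values were seen. Values after ± are SDs over libraries or SEs of the fits, and the floor covers counting error only.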

Additional observations from a re-analysis of the deposited data

Results flagged for a closer look

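The sex difference of the KO effect on Kcnmb4 in the ventral striatum was -0.92 on the log2 scale (female minus male effect). It was flagged because all 3 male KO libraries lay above and all 3 female KO libraries below the WT libraries of their sex. In this region KO and WT did not overlap for 15.8% of all tested genes in males and 7.57% in females. The test of the sex difference did not pass (edgeR's quasi-likelihood test, adjusted p = 0.94). In the dorsal striatum the log2 KO effect on Kcnmb4 was 0.36 ± 0.53 in males and -0.81 ± 0.54 in females, and without the libraries in doubt -0.11 ± 0.44 and -0.14 ± 0.44. In the amygdala it was 0.14 ± 0.26 and -0.02 ± 0.29.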

How the results depend on the processing

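The count of member calls over region pairs, 72, was 77 with DESeq2's size factors, 77 with DESeq2's Wald test, 72 with no low-count filter, 86 with only the regions compared, 69 without mouse 23's prefrontal cortex (labelled female WT), 88 without the 8 libraries in doubt and 63 to 82 when each mouse was left out. With the mouse as a replicate block it was 78. In the main fit 36.8% of tests over all genes passed. That share is not given here for the alternatives, so a change in the count is no result about the members. The block ended the call of Kcnma1 between ventral striatum and amygdala and added 7: Kcnj3 between amygdala and cortex, Kcnma1 between amygdala and prefrontal cortex, Kcnmb4 between ventral hippocampus and amygdala and between dorsal hippocampus and cortex, Kcnj9 between dorsal hippocampus and prefrontal cortex and between dorsal striatum and ventral hippocampus, and Kcnj6 between dorsal striatum and amygdala. The Kcnma1 call was lost under each alternative that changed the scaling, filter or test as well. The calls of Kcnj9 between dorsal striatum and dorsal hippocampus, Kcnj9 between ventral hippocampus and prefrontal cortex, and Kcnmb4 between amygdala and dorsal hippocampus were lost in 9, 7 and 10 of the 12 fits without 1 mouse. The cause was not tested. The counts of calls between KO and WT stayed at 0 under every alternative and every left-out library, except for 1 call in males with no low-count filter (Kcnj5, ventral striatum, adjusted p = 0.0123). No region difference that passed within a numbering series changed sign under the alternatives run. Some differences that had not passed changed sign without the libraries in doubt, among them the male KO effect on Kcnmb4 in the dorsal striatum (0.36 to -0.11) and the per-mouse effect on Kcnj5 (-0.21 to 0.02). Every regional mean moved by less than 1 SD with TMM-scaled CPM. Depth limits Kcnmb1, Kcnmb2 and Kcnj5 in the 3 shallow regions. With 1 male KO library, the prefrontal cortex fits assume that it varies like the other groups.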
